A study of Mus musculus with 17 samples.

Results

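Treatment of germinal centre (GC) B cells with anti-DEC-OVA was examined at 48 h by comparing the transcriptomes of 9 treated mice with those of 6 untreated mice collected on the same day of the response. The cells were GC B cells from lymph nodes, profiled on the 10X Genomics 5′ platform in 2 pools of mice marked with hashtag antibodies, a larger pool of 25 mice and a smaller pool of 14 mice. A cell was included when it carried the hashtags listed for 1 of these mice, at least 200 detected genes and under 10% mitochondrial UMIs (unique molecular identifiers, which count captured RNA molecules). This selected 9977 of the 23698 cells kept over the whole time course, 3924 from untreated and 6053 from treated mice. The larger pool held 4 untreated and 6 treated mice, the smaller pool 2 untreated and 3 treated mice, and the mouse was the replicate of every comparison.

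All mice of both groups were wild-type CD45.1 hosts that had been primed with ovalbumin (OVA) in alum, received B1-8hi B cells specific for the hapten NP and were then immunized with NP-OVA in the footpad. A minority of the transferred cells expressed DEC-205, the endocytic receptor encoded by Ly75, together with a tetracycline-regulated H2B-mCherry driven by Vav-tTA, and the remainder were Ly75-/-. The treated group additionally received anti-DEC-OVA, an antibody to DEC-205 coupled to OVA, in the footpad at 7 days post-immunization (dpi), and was collected 48 h later. The untreated group received no such injection. A control antibody was not analysed here. Males and females aged 5 to 12 weeks were used, without a breakdown by group in the sources used here. The sources used here describe the cells of this time course whose mutations were counted as DEC-205+, while the labels name only GC B cells, so whether Ly75-/- donor cells entered the sequenced pools is not settled. Treatment favours DEC-205+ over Ly75-/- donor cells, which came from other mice, and where both were sequenced a change in their mixture and a change within cells cannot be told apart in these sums. Cells with the Ighv1-72/Ighj2 and Iglv1/Iglj1 pairing of B1-8hi made up 91.5% to 97.3% of the cells with both chains in an untreated mouse and 94.7% to 98.0% in a treated mouse. Both chains were recovered in 67.05% to 70.02% of the kept cells of an untreated mouse in the larger and 37.9% to 39.8% in the smaller pool, and in 73.2% to 79.7% and 54.2% to 60.2% in treated mice.

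GC B cells shuttle between a dark zone (DZ), where they divide and mutate their immunoglobulin genes, and a light zone (LZ), where they take up antigen, present it on MHC class II and compete for help from T follicular helper (TFH) cells. Help arrives through CD40 and cytokines such as IL-4 and IL-21 and induces Myc, which sets how many rounds of division a cell completes after it returns to the DZ. Targeting OVA to DEC-205 loads many B cells with the helper antigen at once and sends them into the DZ together, where they go through successive divisions without further help, a state known as inertial cycling. The comparison at 48 h asks which genes differ in expression during that phase.

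The sorted cells carried the markers of their label. The 11 GC B cell markers (among them Bcl6, S1pr2 and Cd79a) were all detected in both groups. Their summed level was 5869 to 7753 UMIs scaled to a common library size (CPM) in untreated and 4883 to 6600 CPM in treated mice. Of the 11 genes, 7 fell and 2 rose. Summed T cell markers were low in both groups, 9.22 to 14.9 CPM in untreated mice and 1.26 to 7.27 CPM in treated mice, and 3 of the 4 that could be tested fell. Plasma cell markers summed to 1146 to 1980 CPM and 1653 to 2730 CPM, with 2 of 7 tested genes higher, and naive or memory B cell markers to 439 to 811 CPM and 358 to 646 CPM. Of these last 8 genes, 4 fell (Fcer2a, Gpr183, Klf2 and Cd38, by 0.78 to 1.16 on the log2 scale) and 1 rose, the abundant Vpreb3 (0.35). Dendritic cell markers came to 46.9 to 62.0 CPM and 64.0 to 76.1 CPM, almost all of it Flt3. This gene was the only one of the 6 that could be tested, and it rose. Myeloid markers lay between 6.73 and 31.4 CPM over both groups. Stromal or follicular dendritic cell markers reached 4.34 CPM at most, with 3 of 9 genes at 0 in every mouse. Red cell or platelet markers lay between 2.76 and 9.61 CPM with 2 of 7 genes at 0. The part of these other cells in the results was not tested.

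Cells of treated mice held more UMIs than those of untreated mice, about 2.05 times as many by the median cell of a mouse and 1.79 times by the mean. The median number of UMIs per cell ran from 5030 to 7455 in untreated mice (median of mice 6667) and from 10004 to 14467 in treated mice (median of mice 13704), so that the groups did not overlap. The means were 6354 ± 950.1 and 13024 ± 1463 (SD, n = 6 and 9), a difference of 6670 UMIs. An exact two-sided permutation test with labels exchanged within pools gave p = 0.000476, the smallest value that 2100 relabellings allow. It stayed 0.000476 after adjustment over the 5 tests of this family. In the larger pool alone the means were 6934 and 13844 (exact permutation p = 0.00476, the smallest of 210 relabellings). In the smaller pool alone they were 5193 and 11383, where the exact test has 10 relabellings and cannot go below p = 0.1.

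The number of genes detected per cell rose in parallel, from a mean of 2493 to 3731. After each cell was thinned to 2871 UMIs, which left out 2367 shallower cells over the time course, the means were 1483 and 1487 genes, a difference of 3.72 (exact permutation p = 0.448). At equal depth, a difference in genes per cell was therefore not detectable over both pools together. The pools pointed opposite ways. In the larger pool the thinned medians ran from 1451.5 to 1467 in untreated and from 1465.5 to 1481 in treated mice. In the smaller pool they were 1526 and 1528 in untreated mice and 1508 to 1514 in treated mice, without overlap.

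The cell-cycle composition moved in the same mice. Scored with the S and G2/M genes of Seurat, G1 cells made up 44.8% to 57.1% of the cells of an untreated mouse and 16.4% to 24.6% of those of a treated mouse. S-phase cells accounted for 19.2% to 25.7% and 32.7% to 39.7%, and G2/M cells for 22.2% to 35.1% and 38.5% to 48.1%. None of the 3 ranges overlapped between groups. The mean share of G1 cells went from 51.5% ± 5.29 to 20.9% ± 3.26, that of S cells from 21.7% ± 2.56 to 36.2% ± 2.06 and that of G2/M cells from 26.7% ± 4.80 to 42.9% ± 3.50 (SD, n = 6 and 9), each with an exact permutation p of 0.000476. At 2871 UMIs per cell the corresponding means were 48.5% and 20.5% for G1, 22.1% and 35.3% for S and 29.4% and 44.3% for G2/M. Because UMIs were summed over all cells of a mouse, a gene that is high in S or G2/M cells can rise in the sums through the number of such cells alone, and this cannot be told apart there from more RNA of that gene in each of them. In the same way, a gene that is high in G1 cells can fall through the smaller number of such cells alone. The same limit applies to genes that are high in LZ cells, whose share was not measured here.

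**Figure D1:**
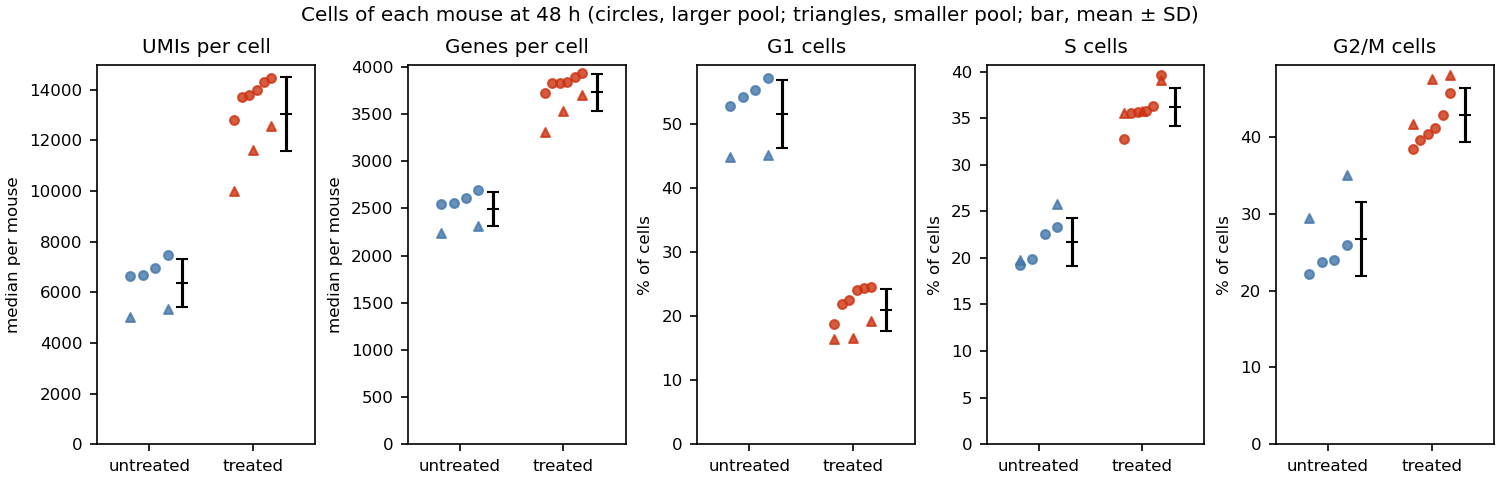
UMIs per cell, genes per cell and the shares of G1, S and G2/M cells in each of the 15 mice at 48 h, with untreated mice in blue, treated mice in red and bars for the mean and SD of each group. In all 5 panels the 9 treated mice lie on one side of the 6 untreated mice, and the smaller pool (triangles) has fewer UMIs per cell than the larger pool (circles) in both groups.

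Expression differed between treated and untreated mice for a large part of the genes. Of 10220 genes tested with edgeR's quasi-likelihood test on the UMIs summed per mouse, 4843 (47.4%) passed an adjusted p of 0.05 (Benjamini-Hochberg over all genes), 2683 higher (26.3%) and 2160 lower (21.1%) in treated mice. All adjusted p-values of genes given here are from this test. The changes were mostly small: 102 of the called genes differed by more than 2-fold, 25 of them higher and 77 lower, and a test against a fold of 1.2 called 970 genes (9.49%), 477 higher (4.67%) and the rest lower (4.82%). Over the 10220 genes, the log2 fold changes had a median of 0.01. For 931 genes (9.11%) the CPM values of the treated and the untreated mice did not overlap, 599 higher (5.86%) and 332 lower (3.25%). Of the called genes, 4804 had the same sign in both pools and 39 did not. The calls were made on both pools together, so this agreement is no separate evidence. A test of the difference between the pools called 2 genes (0.0196%). With 2 untreated mice in the smaller pool, that test can miss differences. Higher genes made up 55.4% of the calls with the main scaling (trimmed mean of M-values) and 38.0% when the libraries were scaled by their totals alone, which gave 1888 higher (18.5%) and 3079 lower genes (30.1%). They made up 50.8% with RLE library factors, 51.0% with DESeq2 and 48.3% to 56.2% when 1 mouse was left out. With B1-8hi cells only, 16.8% of 9836 genes were higher and 17.8% lower, and with cells thinned to 2871 UMIs, 17.1% and 17.2% of 9034. Counts of a list under these settings are read against these shares.

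CPM values are relative to all RNA of a mouse's cells, and those cells held more UMIs after treatment. Counted as UMIs per cell instead, 10031 of the 10220 genes were higher in treated mice and 189 lower, with a median ratio of 1.71. Of the 2160 genes called lower by CPM, 1990 had more UMIs per cell in treated mice and 170 had fewer. A fall described here is therefore a fall relative to the other genes unless UMIs per cell are named.

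**Figure D2:**
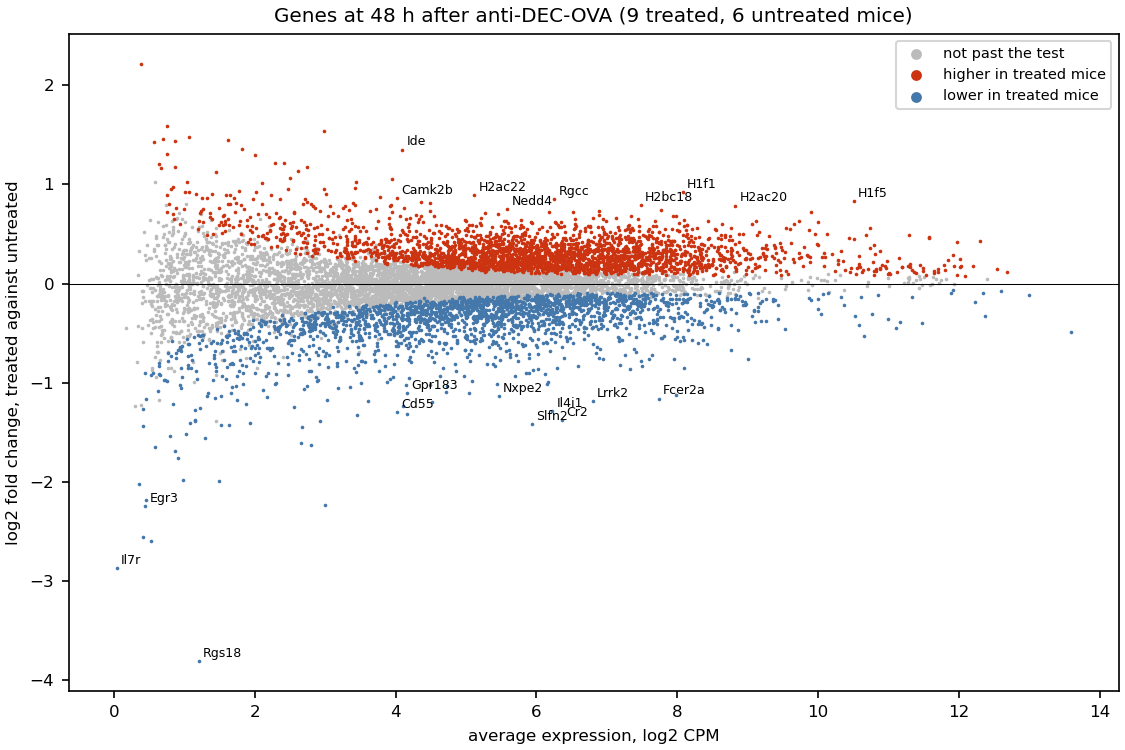
Log2 fold change of treated against untreated mice at 48 h (vertical axis) against average expression in log2 CPM (horizontal axis) for the 10220 genes tested, coloured red where higher and blue where lower past adjusted p 0.05. Falls beyond 1 on the log2 scale outnumber rises of that size (77 against 25), and many of the largest rises among well expressed genes are histone genes.

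The largest rise among well expressed genes (average log2 CPM above 4, same direction in both pools) was in Ide, which encodes the insulin-degrading metalloprotease (chromosome 19, 37245688 to 37340729, GRCm39). Ide ranged from 7.56 to 14.6 CPM (median 10.2) in untreated and from 20.1 to 36.95 CPM (median 25.5) in treated mice, with no overlap (log2 fold change 1.35, SE 0.125, adjusted p = 4.27e-11). Camk2b, a subunit of calcium/calmodulin-dependent kinase II, ranged from 5.20 to 16.2 CPM (median 13.8) in untreated and from 16.3 to 25.3 CPM (median 19.8) in treated mice and was raised in both pools, though by 0.47 in the larger and by 1.80 in the smaller one (log2 fold change 0.86, SE 0.169, adjusted p = 5.51e-05). Bcat1, the cytosolic enzyme that transfers the amino group of branched-chain amino acids, measured between 20.8 and 33.98 CPM (median 29.4) in treated and 12.5 and 20.3 CPM (median 16.4) in untreated mice (log2 fold change 0.82, SE 0.136, adjusted p = 4.14e-06). For both genes the groups were separate.

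Of the 12 largest rises, 7 were histone genes, whose RNA is made in S phase to package new DNA. The linker histone gene H1f1 ranged from 168 to 273 CPM (median 207) in untreated and from 292 to 482 CPM (median 423) in treated mice, without overlap (log2 fold change 0.92, SE 0.139, adjusted p = 8.29e-07). H1f5, a second linker histone, ranged from 927 to 1713 CPM (median 1093) in untreated and from 1424 to 2773 CPM (median 2376) in treated mice, where the treated mice of the smaller pool fell within the untreated range (log2 fold change 0.83, SE 0.152, adjusted p = 1.92e-05). The other 5, H2ac20 and H2ac22 (histone H2A), H2bc9 and H2bc18 (H2B) and H3c11 (H3), rose by 0.76 to 0.89 on the log2 scale. Effects were smaller in the smaller pool, 1.02 against 0.35 for H2ac22 and 0.87 against 0.17 for H3c11, and these 2 calls were lost there and without the pool term. The call of H2bc9 was also lost in the smaller pool alone. Levels differed as well. H2ac22 stood at 24.9 to 39.8 CPM in untreated and 62.2 to 75.1 CPM in treated mice of the larger pool, but at 8.60 and 11.6 CPM and at 12.3 to 13.8 CPM in the smaller one. Histone genes of this kind are near-identical copies whose RNA mostly lacks a poly(A) tail, so the split of reads among them is uncertain. The remaining rises were Rgcc, a regulator of the cell cycle (between 77.8 and 144 CPM (median 116) in treated and 42.2 and 81.5 CPM (median 57.9) in untreated mice), and Nedd4, a ubiquitin ligase (between 47.3 and 79.3 CPM (median 62.2) in treated and 28.9 and 48.4 CPM (median 34.8) in untreated mice). The groups overlapped narrowly in both, with log2 fold changes of 0.86 and 0.75. Across the 12 rises, chosen for their size, 4 had no overlap between the groups (5.86% of all genes tested were higher without overlap).

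The 12 largest falls among well expressed genes all separated the treated from the untreated mice. Over all genes tested, 3.25% were lower without overlap, and these 12 were chosen for their size. Several encode surface proteins of LZ or resting B cells. Cr2, the receptor for complement fragments bound to antigen, ranged from 87.2 to 122 CPM (median 97.5) in untreated and from 22.9 to 60.9 CPM (median 39.02) in treated mice (log2 fold change -1.38, SE 0.173, adjusted p = 3.64e-08). Fcer2a, which encodes the low-affinity IgE receptor CD23 and is induced by IL-4, measured between 72.1 and 164 CPM (median 121) in treated and 185 and 309.8 CPM (median 252) in untreated mice (log2 fold change -1.16, SE 0.0958, adjusted p = 3.25e-12). Cd83, a glycoprotein used to mark LZ cells, ranged from 274 to 354 CPM (median 313) in untreated and from 108 to 176 CPM (median 148) in treated mice (log2 fold change -1.13, SE 0.0692, adjusted p = 7.14e-16). In each of these 3 genes the highest treated mouse lay well under the lowest untreated one.

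Il4i1, a secreted oxidase of aromatic amino acids named for its induction by IL-4, ranged from 60.2 to 104 CPM (median 95.97) in untreated and from 22.1 to 55.4 CPM (median 34.2) in treated mice (log2 fold change -1.29, SE 0.111, adjusted p = 1.12e-11). Cd55, which shields cells from complement, measured between 5.37 and 10.2 CPM (median 7.28) in treated and 14.2 and 24.3 CPM (median 19.6) in untreated mice (log2 fold change -1.30, SE 0.150, adjusted p = 8.02e-09). Gpr183, the receptor EBI2 that guides B cells along oxysterol gradients, ranged from 15.1 to 37.1 CPM (median 24.7) in untreated and from 7.16 to 14.8 CPM (median 10.7) in treated mice (log2 fold change -1.11, SE 0.194, adjusted p = 9.72e-06). The kinase gene Lrrk2 lay between 54.9 and 67.5 CPM (median 62.5) in treated and 122 and 151 CPM (median 143) in untreated mice (log2 fold change -1.18, SE 0.0817, adjusted p = 2.43e-14).

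Slfn2, a member of the schlafen family that maintains quiescence of immune cells, ranged from 66.6 to 102 CPM (median 72.02) in untreated and from 17.3 to 47.2 CPM (median 29.6) in treated mice (log2 fold change -1.41, SE 0.156, adjusted p = 3.09e-09). Rnpep, an aminopeptidase, measured between 6.53 and 12.3 CPM (median 10.1) in treated and 21.3 and 29.04 CPM (median 23.6) in untreated mice (log2 fold change -1.32, SE 0.108, adjusted p = 3.25e-12). The falls were completed by Rapgef4, a cAMP-sensing exchange factor for Rap GTPases (-1.23), Trim7, a ubiquitin ligase (-1.19), and Nxpe2 (-1.14). Counted as UMIs per cell, all 12 genes were also lower in treated mice, at 0.652 (Slfn2) to 0.785 (Cd83) of the untreated level.

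**Figure D3:**
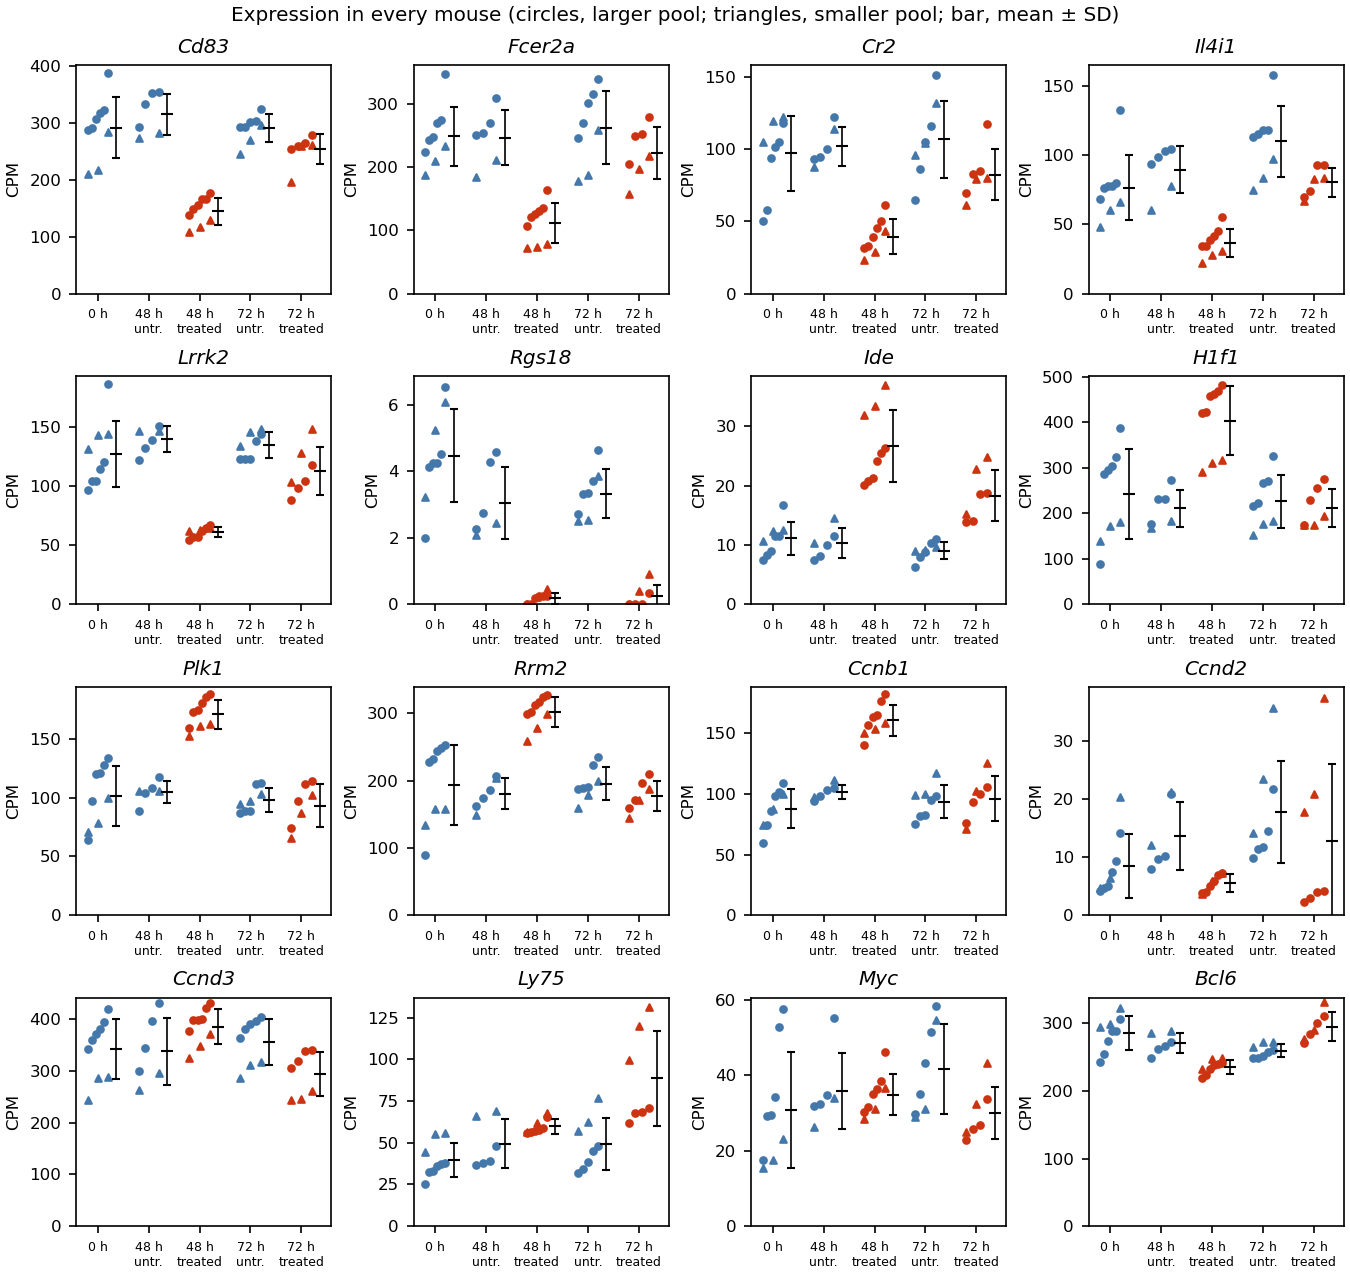
CPM of 16 genes in each of the 39 mice at 0 h, 48 h and 72 h, untreated mice in blue and treated mice in red, circles for the larger and triangles for the smaller pool, with bars for the mean and SD of each group cut at 0 by the axis. Cd83, Fcer2a, Cr2, Il4i1, Lrrk2 and Rgs18 lie lower and Ide, H1f1, Plk1, Rrm2 and Ccnb1 higher in all treated mice at 48 h than in all untreated mice of that time, while Myc, Ccnd3, Ly75 and Bcl6 overlap.

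To describe the response by function, 44 lists of genes were read against the background of 26.3% of genes higher and 21.1% lower and a median of 0.01. Their 1267 distinct tested genes include some that stand in more than 1 list. The highest list median was 0.46 for mitosis, and the lowest list medians, down to -0.56, belonged to LZ genes, MHC class II presentation, memory precursors, cytokine signalling and CD40 signalling.

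**Figure D4:**
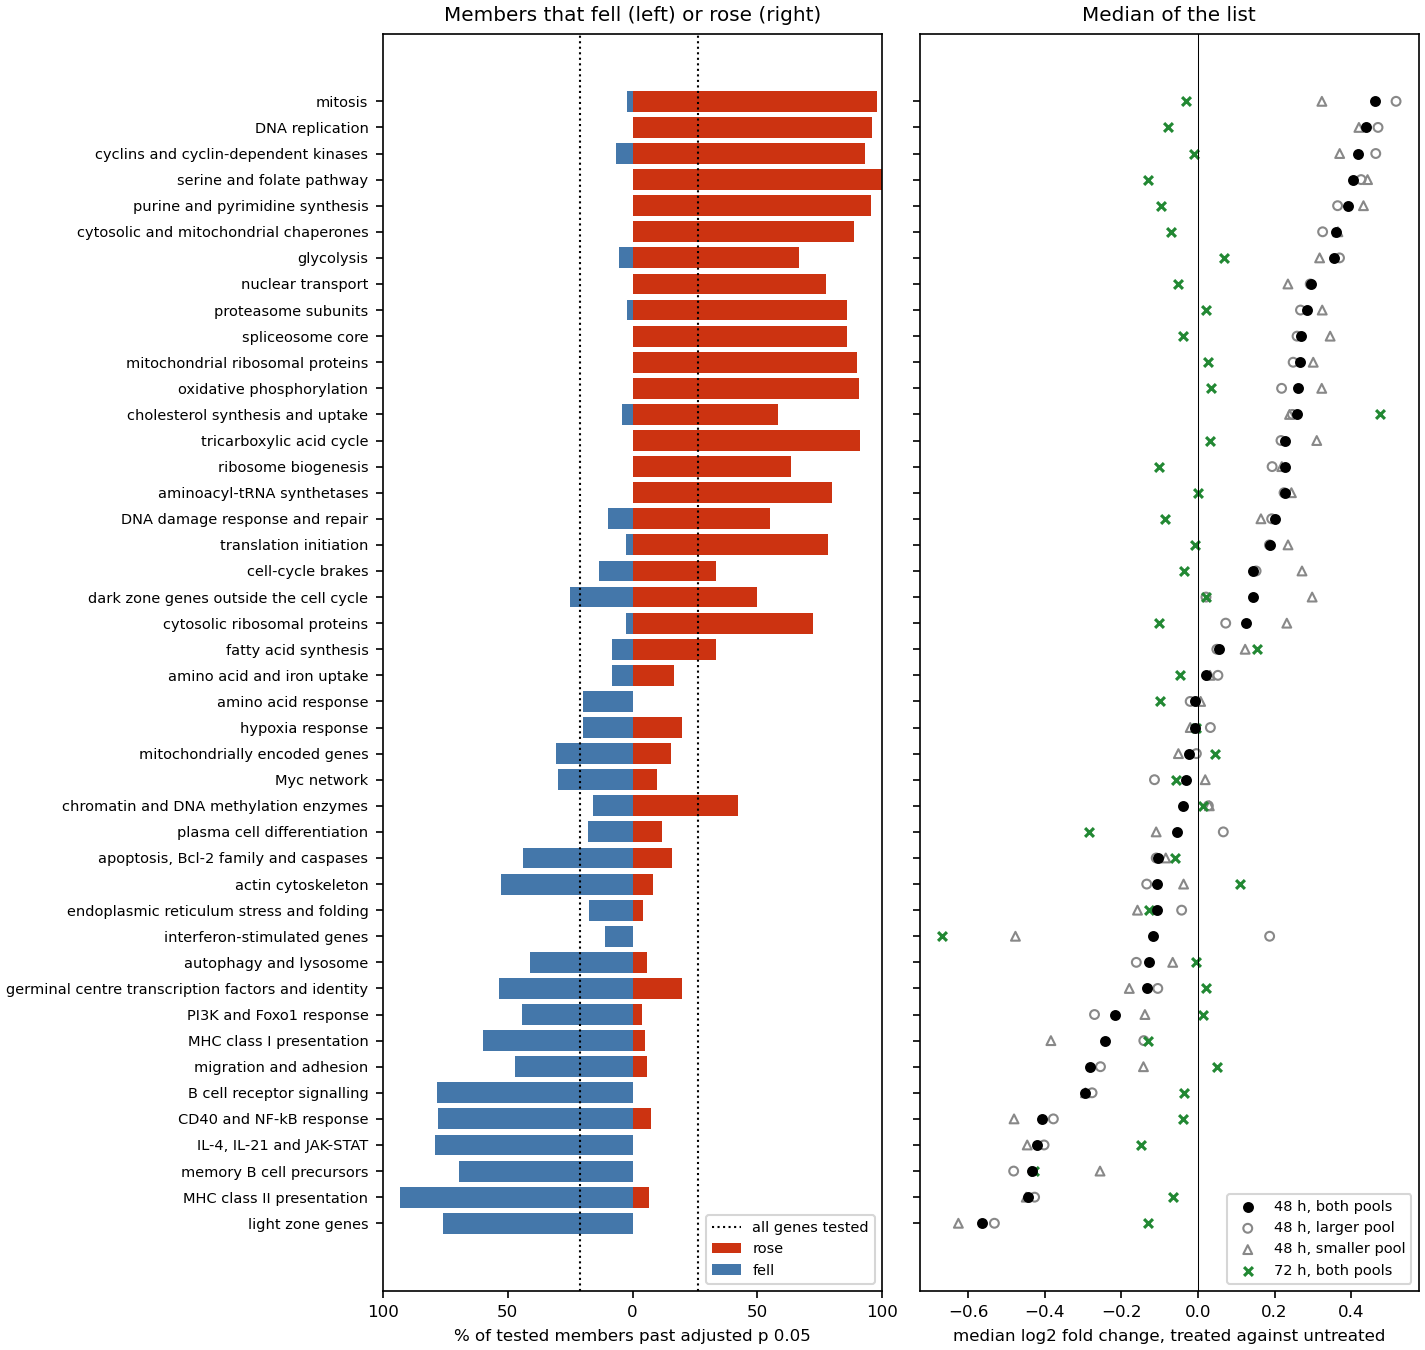
Left, percentage of the tested members of each of the 44 gene lists that rose or fell past adjusted p 0.05 at 48 h, with dotted lines for all genes tested (26.3% higher, 21.1% lower). Right, the median log2 fold change of each list at 48 h in both pools and in each pool, and at 72 h: mitosis (0.46) and DNA replication (0.44) stand at the top and LZ genes (-0.56) at the bottom at 48 h, whereas most 72 h medians lie near 0.

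Genes of mitosis rose together. Of 48 tested, 47 rose and 1 fell (median 0.46, 0.52 in the larger and 0.32 in the smaller pool), and 21 had separate groups. Aurka, the kinase that matures centrosomes and builds the spindle, ranged from 56.3 to 70.4 CPM (median 62.9) in untreated and from 88.6 to 118 CPM (median 107) in treated mice (log2 fold change 0.73, SE 0.0981, adjusted p = 1.33e-07). Plk1, the kinase that drives mitotic entry and cytokinesis, ranged from 88.8 to 117 CPM (median 105) in untreated and from 153 to 188 CPM (median 173) in treated mice (log2 fold change 0.70, SE 0.0983, adjusted p = 2.8e-07). Mki67, the proliferation antigen Ki-67 that coats mitotic chromosomes, rose with slightly overlapping groups, between 1830.3 and 2486 CPM (median 1919) in treated and 1224 and 1871 CPM (median 1337) in untreated mice (log2 fold change 0.49, SE 0.0819, adjusted p = 4.22e-06). The single fall was in Pttg1, which encodes securin, the inhibitor of the protease separase that opens sister chromatids at anaphase. Pttg1 measured between 49.1 and 65.8 CPM (median 52.98) in treated and 88.6 and 109 CPM (median 100.3) in untreated mice, with no overlap (log2 fold change -0.85, SE 0.0782, adjusted p = 4.27e-11), against the direction of the other 47 genes.

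Mitotic genes are often held under a cell cycle genes homology region (CHR), TTTGAA, which was searched for on both strands of promoter windows from 250 bases before to 50 bases after the gene start (RefSeq, GRCm38.p6). It occurred in 31 of the 41 mitosis genes with a window (75.6%), compared with 20.2% of 27025 genes and 14.7% of the 8232 tested genes with a window. The pair with the largest changes among list members that hold the motif is shown, CHR in capitals, read 5′ to 3′ along the strand of the gene.
Aurka: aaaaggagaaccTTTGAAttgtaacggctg
Plk1: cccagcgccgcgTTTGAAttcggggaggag
The Aurka stretch is chr2:172370521-172370550 on the minus strand, with the motif 32 bases after the start, and the Plk1 stretch is chr7:122159453-122159482 on the plus strand, with the motif 30 bases after the start. A match is a description of the letters and not evidence of binding.

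DNA replication genes moved as uniformly. Among 50 tested, 48 rose and 0 fell (median 0.44), and in 28 the groups were separate. Rrm2, the regulated subunit of the ribonucleotide reductase that supplies deoxynucleotides, ranged from 149 to 207 CPM (median 180.0) in untreated and from 259 to 327 CPM (median 302) in treated mice (log2 fold change 0.74, SE 0.113, adjusted p = 1.06e-06). Tipin, which stabilizes the replication fork, measured between 242 and 291 CPM (median 271) in treated and 149.9 and 202 CPM (median 177) in untreated mice (log2 fold change 0.63, SE 0.0749, adjusted p = 1.41e-08). Both genes had separate groups.

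E2F sites (TTTCCCGC, TTTGGCGC or TTTCGCGC, either strand), through which E2F factors time S-phase genes, were found in the windows of 16 of 42 replication genes (38.1%), 2.12% of all 27025 genes and 4.56% of the tested genes. Orc1, a subunit of the origin recognition complex, and Clspn, the checkpoint adaptor claspin, are shown as the members holding a site with the largest rises (0.55 and 0.53 on the log2 scale), with the site in capitals as read on the gene's strand.
Orc1: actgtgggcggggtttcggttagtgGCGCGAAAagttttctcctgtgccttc
Clspn: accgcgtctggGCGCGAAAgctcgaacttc
These lie at chr4:108579402-108579453, 27 bases before the start, and at chr4:126556990-126557019, 21 bases after the start, both on the plus strand of GRCm38.p6.

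Cyclins and their kinases followed, with 14 of 15 higher and 1 lower (median 0.42). Ccnb1, the mitotic cyclin, ranged from 94.5 to 111 CPM (median 101) in untreated and from 141 to 182 CPM (median 158) in treated mice (log2 fold change 0.66, SE 0.0915, adjusted p = 1.83e-07), and Ccne1, the cyclin of S-phase entry, measured between 38.6 and 48.05 CPM (median 42.5) in treated and 20.99 and 39.5 CPM (median 27.1) in untreated mice with a slight overlap (log2 fold change 0.59, SE 0.0985, adjusted p = 4.22e-06). The D-type cyclins couple growth signals to the start of the cycle. Ccnd2 ranged from 7.90 to 21.3 CPM (median 11.1) in untreated and from 3.65 to 7.31 CPM (median 5.87) in treated mice, with no overlap (log2 fold change -1.33, SE 0.332, adjusted p = 0.00101), and it fell in both pools (-1.15 and -1.58). Ccnd3, the D-type cyclin on which DZ division depends, ranged from 263 to 431 CPM (median 322) in untreated and from 326 to 432 CPM (median 398) in treated mice, a small rise with broad overlap (log2 fold change 0.20, SE 0.0571, adjusted p = 0.00406). The call of Ccnd3 was lost with scaling by library totals, without the pool term, with thinned cells and in the larger pool alone.

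Genes that brake the cycle had no common direction, with 5 higher, 2 lower and 8 not past the test of 15 (2 higher and 2 lower of 13 with B1-8hi cells only). The antiproliferative gene Btg2 ranged from 56.8 to 111 CPM (median 95.9) in untreated and from 36.4 to 49.7 CPM (median 43.5) in treated mice and separated the groups (log2 fold change -0.99, SE 0.0949, adjusted p = 1.02e-10), and its relative Btg1 fell by a smaller amount with overlap (log2 fold change -0.54, SE 0.0623, adjusted p = 8.9e-09). A pair of inhibitors of cyclin-dependent kinases rose, Cdkn2d by 0.35 and Cdkn2a, at 2.99 and 4.35 CPM on average, by 0.54. The call of Cdkn2a was lost in each pool alone and with B1-8hi cells only, and that of Cdkn2d without the pool term.

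Genes of DNA damage response and repair were more often higher than lower, 22 against 4 of 40 (median 0.20). Xrcc2, a factor of homologous recombination, ranged from 3.78 to 7.11 CPM (median 5.63) in untreated and from 7.12 to 10.2 CPM (median 8.36) in treated mice, barely without overlap (log2 fold change 0.56, SE 0.133, adjusted p = 0.000616). In the smaller pool alone and with thinned cells, Xrcc2 did not pass. Xrcc4, the ligase partner of end joining, fell with overlap (between 36.2 and 50.5 CPM (median 38.8) in treated and 37.8 and 65.6 CPM (median 43.8) in untreated mice, log2 fold change -0.22). The stress gene Gadd45g measured between 6.38 and 14.00 CPM (median 8.01) in treated and 9.54 and 20.3 CPM (median 18.03) in untreated mice and fell by more (log2 fold change -0.88, SE 0.208, adjusted p = 0.00052).

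Myc itself did not differ detectably at 48 h. It ranged from 26.4 to 55.3 CPM (median 33.2) in untreated and from 28.3 to 46.2 CPM (median 35.2) in treated mice, and the estimate lay near 0 with a wide error (log2 fold change -0.03, SE 0.180, adjusted p = 0.901). In the network of factors that pair with Max, 1 of 10 tested rose and 3 fell. Mxd4, a repressor that competes with Myc for Max in resting cells, measured between 32.9 and 55.4 CPM (median 48.3) in treated and 59.7 and 105 CPM (median 92.1) in untreated mice and separated the groups (log2 fold change -0.91, SE 0.101, adjusted p = 3.06e-09). Mxd3, its relative expressed in S phase, rose (log2 fold change 0.45, SE 0.105, adjusted p = 0.000468), and Max fell slightly (-0.16). The calls of Mxd3 and Max were lost in the smaller pool alone.

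Genes of ribosome biogenesis, a classical set of Myc targets, showed a modest rise. Of 60 tested, 38 rose and 0 fell, with a median of 0.23, and 1 had separate groups. None passed the test against a fold of 1.2, and 16 rose when only B1-8hi cells were summed. Npm1, the nucleolar chaperone nucleophosmin, ranged from 1176 to 1726 CPM (median 1436) in untreated and from 1579.5 to 2382 CPM (median 2005) in treated mice (log2 fold change 0.45, SE 0.104, adjusted p = 0.00048), and Rrp1b, a nucleolar processing factor, rose by 0.42 (between 39.8 and 55.8 CPM (median 46.4) in treated and 26.3 and 48.1 CPM (median 34.4) in untreated mice). For both the groups overlapped.

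The E-box CACGTG, the site bound by Myc with Max, stood in the windows of 13 of 53 ribosome biogenesis genes (24.5%), against 8.09% of all 27025 genes and 12.2% of the tested genes. Of the members that rose, 8 of 32 with a window held it. Grwd1 and Nop2, both assembly factors of the large ribosomal subunit, are shown as those with the largest rises (0.31 and 0.29), E-box in capitals.
Grwd1: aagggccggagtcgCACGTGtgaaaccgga
Nop2: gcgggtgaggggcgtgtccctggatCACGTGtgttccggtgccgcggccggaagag
The first lies at chr7:45830740-45830769 on the minus strand, 34 bases after the gene start, and the second at chr6:125131798-125131853 on the plus strand, 60 bases before it (GRCm38.p6).

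Components of the translation machinery were raised by small amounts. Against a fold of 1.2, where 4.67% of all genes rose, 3 of 80 cytosolic ribosomal protein genes did. That test called 1 of 37 initiation factors, 0 of 20 aminoacyl-tRNA synthetases and 9 of 78 mitochondrial ribosomal protein genes. Cytosolic ribosomal protein genes rose in 58 and fell in 2 of 80 (median 0.12), and with scaling by library totals the counts were 34 and 8 (29 and 6 with B1-8hi cells only). Rps2 ranged from 2560.2 to 3578 CPM (median 2872) in untreated and from 3759 to 4424 CPM (median 4079) in treated mice, without overlap (log2 fold change 0.47, SE 0.0720, adjusted p = 1.14e-06). Fau, which encodes a ribosomal protein fused to a ubiquitin-like domain, fell by 0.19 and Rps27 by 0.13, both with overlap. Both calls were lost without the pool term and in the smaller pool alone. Initiation factors rose in 29 of 37 (median 0.19), led by Eif1ax (0.40, separate groups) and Eif5a (0.39), and 18 rose with thinned cells. The helicase gene Eif4a2 fell by 0.14. Aminoacyl-tRNA synthetases rose in 16 and fell in 0 of 20 (median 0.23), with Eprs and Mars1 both at 0.30, and 10 rose with B1-8hi cells only. Mitochondrial ribosomal protein genes moved furthest in this group, 70 of 78 higher and 0 lower (median 0.27), with 44 of 77 higher after cells were thinned. Mrps18a, of the small mitochondrial subunit, ranged from 122 to 138 CPM (median 125) in untreated and from 182 to 198 CPM (median 188) in treated mice, with no overlap (log2 fold change 0.57, SE 0.0646, adjusted p = 4.56e-09).

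Genes of energy metabolism rose on both the mitochondrial and the cytosolic side, by small amounts in the mitochondrial lists. Nuclear genes of oxidative phosphorylation were higher in 70 of 77 and lower in 0 (median 0.26), and genes of the tricarboxylic acid cycle in 21 of 23 and 0 (median 0.23). Against a fold of 1.2, 4 of the 77 and 5 of the 23 rose, where 4.67% of all genes did. Idh2, the mitochondrial NADP-linked isocitrate dehydrogenase, ranged from 30.7 to 52.1 CPM (median 43.4) in untreated and from 49.9 to 74.9 CPM (median 67.9) in treated mice (log2 fold change 0.58, SE 0.0793, adjusted p = 1.72e-07), and Atp5b, the catalytic subunit of ATP synthase, measured between 756 and 895 CPM (median 845) in treated and 550.4 and 769 CPM (median 628) in untreated mice (log2 fold change 0.39, SE 0.0531, adjusted p = 1.47e-07). The groups overlapped narrowly in both. Genes encoded in the mitochondrial genome itself did not share the rise, with 2 higher and 4 lower of 13 (median -0.02), which became 1 and 7 with scaling by library totals. The gene mt-Nd3 rose by 0.34 and mt-Nd2 by 0.16, and mt-Atp8 and mt-Co3 fell by 0.10 and 0.09. The cells had been filtered on these transcripts, and in the smaller pool 15.9% to 28.2% of a mouse's assigned cells at 48 h were removed for them against 1.95% to 5.56% in the larger pool.

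Glycolysis genes rose in 12 and fell in 1 of 18 (median 0.36). Pgam1, phosphoglycerate mutase, ranged from 188 to 299 CPM (median 228) in untreated and from 298 to 409.7 CPM (median 363) in treated mice, with the lowest treated mouse just inside the untreated range (log2 fold change 0.62, SE 0.0774, adjusted p = 3.75e-08), and Pfkm, a minor isoform of phosphofructokinase here at 2.07 and 3.27 CPM on average, rose by 0.65. Aldoc, the aldolase isoform of brain that is weakly expressed here, was the exception and measured between 2.02 and 3.77 CPM (median 2.71) in treated and 4.68 and 10.1 CPM (median 7.14) in untreated mice, with no overlap (log2 fold change -1.24, SE 0.189, adjusted p = 9.7e-07).

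Pathways that supply nucleotides were raised. All 13 tested genes of the serine and folate pathway rose (median 0.41), but 8 did with scaling by library totals and 7 with B1-8hi cells only. In purine and pyrimidine synthesis 21 of 22 genes rose (median 0.39). Tyms, thymidylate synthase, ranged from 58.6 to 74.5 CPM (median 65.7) in untreated and from 94.9 to 109.5 CPM (median 102) in treated mice (log2 fold change 0.61, SE 0.0798, adjusted p = 6.76e-08), and Paics, a bifunctional enzyme of purine synthesis, measured between 244 and 284 CPM (median 255) in treated and 162 and 209 CPM (median 174) in untreated mice (log2 fold change 0.52, SE 0.0614, adjusted p = 1.12e-08). The groups were separate in both genes and in Umps, the last enzyme of uridylate synthesis (0.50).

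Lipid synthesis moved less. Cholesterol genes rose in 14 and fell in 1 of 24 (median 0.26), and in 5 and 1 with B1-8hi cells only. Among the rises was Idi1, isopentenyl diphosphate isomerase (between 112 and 181 CPM (median 134) in treated and 81.9 and 110.5 CPM (median 95.1) in untreated mice, log2 fold change 0.58, SE 0.0927, adjusted p = 2.43e-06), with separate groups. Srebf2, the transcription factor of this pathway, fell by 0.13. No window of the 17 cholesterol genes with one held the sterol regulatory element (SRE) in either of the forms searched for, which occur in 0.222% of all windows. In fatty acid synthesis, 4 of 12 rose and 1 fell (median 0.06). The desaturase genes went in opposite directions, Fads2 (0.79) and Fads1 (0.65, separate groups) higher and Scd1 (-0.37) lower. Transporters of amino acids and iron gave 2 rises and 1 fall among 12. Slc7a5, the light chain of the large neutral amino acid carrier, measured between 25.6 and 42.4 CPM (median 35.1) in treated and 24.3 and 31.3 CPM (median 27.2) in untreated mice (log2 fold change 0.32). In the smaller pool alone, with B1-8hi cells only and with thinned cells, Slc7a5 did not pass. The transferrin receptor gene Tfrc stood at 0.29 and the glutamine carrier gene Slc38a2 at -0.16.

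Machinery for protein folding, turnover, splicing and nuclear traffic rose as well. Chaperones of the cytosol and mitochondria rose in 24 of 27 and fell in 0 (median 0.36), and proteasome subunits rose in 37 and fell in 1 of 43 (median 0.29). Spliceosome genes rose in 31 of 36 (median 0.27). Nuclear transport genes rose in 24 of 31 (median 0.29), or 15 with B1-8hi cells only, and neither list held a fall. Hsp90aa1, the inducible cytosolic HSP90, ranged from 729.7 to 1258 CPM (median 916) in untreated and from 1098 to 1896 CPM (median 1392) in treated mice (log2 fold change 0.62, SE 0.103, adjusted p = 4.11e-06), and Hspd1, the mitochondrial chaperonin HSP60, rose by 0.59. Psmc1, an ATPase of the proteasome cap, measured between 188 and 222 CPM (median 195) in treated and 125 and 165 CPM (median 149.8) in untreated mice without overlap (log2 fold change 0.44, SE 0.0512, adjusted p = 1.08e-08). The fall was in Psmb10 (by 0.17), which encodes a catalytic subunit of the immunoproteasome, with overlapping groups. Its call was lost without any 1 of 7 mice (adjusted p 0.0505 to 0.116), which were 2 untreated mice of the larger pool and all 5 mice of the smaller pool, and also in the larger pool alone. Snrpa1, of the U2 particle, ranged from 130.2 to 149 CPM (median 135) in untreated and from 171 to 212 CPM (median 204) in treated mice (log2 fold change 0.54, SE 0.0629, adjusted p = 9.07e-09), and Kpna2, an importin, ranged from 92.00 to 119.5 CPM (median 109) in untreated and from 139 to 177 CPM (median 158) in treated mice (log2 fold change 0.57, SE 0.0931, adjusted p = 3.7e-06). Both separated the groups.

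Stress programmes did not follow this rise. Genes of the endoplasmic reticulum (ER) gave 1 rise and 4 falls among 23 (median -0.11), and 0 and 11 with scaling by library totals. The lectin chaperone gene Canx stood at 0.13, a call lost in 23 of 28 alternatives, 12 of which left out 1 mouse (adjusted p 0.0581 to 0.184). The ER HSP70 gene Hspa5 stood at -0.21, which failed without any 1 of 4 mice (adjusted p 0.0745 to 0.333), 1 untreated mouse of each pool and 2 treated mice of the smaller one. Dnajb9, a target of the unfolded protein response, stood at -0.44. Of 10 genes of the amino acid response, 0 rose and 2 fell, namely Ddit4, an inhibitor of mTORC1 (between 3.08 and 15.1 CPM (median 10.4) in treated and 9.90 and 24.5 CPM (median 17.9) in untreated mice, log2 fold change -0.83, SE 0.142, adjusted p = 6.43e-06), and Ddit3, which encodes CHOP (-0.58, separate groups). The amino acid response element (TGATGCAAT or TGATGAAAC) was in 2 of 12 windows (16.7%, against 0.448% of all genes), neither of them a gene that fell. Hypoxia genes were split evenly, 3 higher and 3 lower of 15, with Higd1a (0.39, separate groups) and the oxygen sensor gene Egln1 (0.40) on one side and Ndrg1 (-0.81) and Ddit4 on the other. Without 1 untreated mouse of the larger pool, Ndrg1 no longer passed (-0.66, adjusted p = 0.0583).

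LZ genes fell. Of 33 tested, 25 fell and 0 rose, and the median of -0.56 was the lowest of all lists (-0.53 in the larger and -0.63 in the smaller pool). Besides Cd83, Fcer2a and Gpr183, the list includes Egr3, an immediate-early gene of antigen receptor signalling, with very few counts (55 UMIs in all untreated and 30 in all treated mice, log2 fold change -2.24, SE 0.371, adjusted p = 3.93e-06). Counted as UMIs per cell, 9 of the 33 genes were lower in treated mice, and the median ratio of the list was 1.12, compared with 1.71 over all genes.

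Genes downstream of T cell help were lower too, relative to the other genes. The part that changed shares of G1 or LZ cells had in these falls and in those of LZ genes was not tested. The CD40 and NF-kB list held 21 falls and 2 rises among 27 (median -0.41). Counted as UMIs per cell, all 27 were higher in treated mice (median ratio 1.29). Birc3, an NF-kB target that protects from apoptosis, ranged from 122.8 to 149 CPM (median 135) in untreated and from 70.5 to 86.3 CPM (median 79.3) in treated mice, without overlap (log2 fold change -0.76, SE 0.0826, adjusted p = 1.95e-09), and Tnfaip3, which encodes the NF-kB inhibitor A20, measured between 9.60 and 16.7 CPM (median 12.2) in treated and 16.1 and 27.6 CPM (median 21.2) in untreated mice (log2 fold change -0.77, SE 0.105, adjusted p = 1.5e-07). The estimates of Traf2 (0.19) and Marcksl1 (0.18) were small, with overlapping groups. Neither passed with scaling by library totals, with thinned cells or in the smaller pool alone, nor without 1 untreated mouse of the larger pool or 1 (Traf2) or 2 (Marcksl1) of its treated mice (adjusted p 0.0655 to 0.0703 and 0.0740 to 0.116). In the list of IL-4, IL-21 and JAK-STAT signalling, 19 of 24 fell (11 of 21 with thinned cells) and 0 rose (median -0.42), Il4i1 and Fcer2a showing the largest falls. UMIs per cell were higher in treated mice for 21 of these 24 genes and lower for 3 (median ratio 1.28).

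Of 37 genes of B cell receptor signalling, 29 fell and 0 rose, with a median of -0.29 and no member above -0.03. Cr2, a coreceptor component, led it, followed by Cd72, an inhibitory coreceptor (between 24.6 and 54.8 CPM (median 48.3) in treated and 53.9 and 114 CPM (median 86.3) in untreated mice, log2 fold change -1.01, SE 0.124, adjusted p = 2.1e-08), whose highest treated mice reached just into the untreated range. UMIs per cell were higher in treated mice for 34 of the 37 genes and lower for 3 (median ratio 1.39).

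Genes of MHC class II presentation fell relative to other genes. Of 15 tested, 14 fell and 1 rose (median -0.44, and -0.43 and -0.45 in the pools). Counted as UMIs per cell, 14 of the 15 were higher and 1 lower in treated mice (median ratio 1.26). H2-Oa, a subunit of the peptide-exchange modulator H2-O, ranged from 119 to 235 CPM (median 199.7) in untreated and from 60.5 to 136 CPM (median 117) in treated mice (log2 fold change -0.86, SE 0.0902, adjusted p = 9.53e-10), and Ifi30, the lysosomal thiol reductase GILT, measured between 209 and 393 CPM (median 334) in treated and 339 and 644 CPM (median 545) in untreated mice (log2 fold change -0.67, SE 0.0641, adjusted p = 9.87e-11). Groups overlapped in both, although each pool showed the fall (-0.81 and -0.96 for H2-Oa, -0.69 and -0.63 for Ifi30). The rise was in Lgmn, an asparaginyl endopeptidase (0.17), whose call was lost in 12 of 28 alternatives, among them library totals, B1-8hi cells only, each pool alone and 6 that left out 1 mouse (adjusted p 0.0703 to 0.0941). Class I genes fell in 12 and rose in 1 of 20 (median -0.24), the rise being that of Canx described above. H2-Q6 and H2-Q7 stood at -0.78 and -0.74, and shared reads within this family make their separate values uncertain. Genes of autophagy and lysosome had 14 falls and 2 rises among 34 (median -0.13), and 21 and 0 with scaling by library totals. The falls included Hexa (-0.58), a lysosomal hydrolase, and the rises were the proton pump gene Atp6v1a (0.16) and the autophagy gene Atg3, whose call was lost without any 1 of 12 mice.

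Transcription factors and identity genes of the GC fell more often than they rose, 16 against 6 of 30 (median -0.13). Bcl6, the repressor on which the GC depends, ranged from 248 to 289 CPM (median 269) in untreated and from 219 to 249 CPM (median 238) in treated mice, with the ends of the ranges overlapping (log2 fold change -0.20, SE 0.0420, adjusted p = 0.00016). Foxp1, a forkhead factor of resting B cells, ranged from 330.2 to 368 CPM (median 362) in untreated and from 214 to 287 CPM (median 231) in treated mice, without overlap (log2 fold change -0.61, SE 0.0833, adjusted p = 1.6e-07). Irf4, which drives plasma cell fate and responds to receptor and CD40 signals, measured between 5.13 and 16.7 CPM (median 10.7) in treated and 6.94 and 38.2 CPM (median 23.7) in untreated mice, with separate groups in the larger and overlapping groups in the smaller pool (log2 fold change -0.97, SE 0.194, adjusted p = 7.16e-05, and -1.19 and -0.33 in the pools). Among the rises, Gcsam, an adaptor restricted to GC B cells, ranged from 252 to 288 CPM (median 267) in untreated and from 368 to 410.1 CPM (median 403) in treated mice (log2 fold change 0.56, SE 0.0635, adjusted p = 5.57e-09), and Ezh2, the methyltransferase of Polycomb, ranged from 271 to 369 CPM (median 318) in untreated and from 381 to 466.4 CPM (median 399.7) in treated mice (log2 fold change 0.36, SE 0.0598, adjusted p = 4.22e-06). Both had separate groups.

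DZ genes other than those of the cell cycle were divided, 6 higher and 3 lower of 12 (median 0.14, 0.02 in the larger and 0.30 in the smaller pool). Cxcr4, the chemokine receptor that holds cells in the DZ, ranged from 62.2 to 137 CPM (median 120.0) in untreated and from 79.9 to 131 CPM (median 117) in treated mice and did not pass (log2 fold change 0.05, SE 0.0668, adjusted p = 0.563). The pools pointed opposite ways. In the larger pool Cxcr4 stood at 118 to 137 CPM in untreated and 113 to 131 CPM in treated mice (-0.08), and in the smaller pool at 62.2 and 68.0 CPM and at 79.9 to 84.7 CPM without overlap (0.34). Fitted alone, the smaller pool gave a call (adjusted p = 0.0378, edgeR). Foxo1, the transcription factor required for the DZ programme, fell with overlap (between 162 and 215 CPM (median 179.8) in treated and 201 and 237 CPM (median 216) in untreated mice, log2 fold change -0.26, SE 0.0537, adjusted p = 0.000101), and Bach2, a repressor of plasma cell differentiation, ranged from 1577 to 2875 CPM (median 1766) in untreated and from 1221 to 2157 CPM (median 1435) in treated mice (log2 fold change -0.35, SE 0.0712, adjusted p = 7.57e-05). Genes of PI3K signalling and of the Foxo1 response fell in 12 and rose in 1 of 27 (median -0.22). Klf2, a Foxo1 target that governs lymphocyte egress, measured between 9.95 and 26.2 CPM (median 20.02) in treated and 15.8 and 69.6 CPM (median 34.3) in untreated mice (log2 fold change -0.81, SE 0.204, adjusted p = 0.00106), and its fall was -1.08 in the larger and -0.16 in the smaller pool. The rise was in the kinase gene Akt1 (0.27).

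Genes of migration and adhesion fell in 16 and rose in 2 of 34 (median -0.28). The fall of Rgs18, which encodes a regulator that shortens G protein signals, exceeded all others named here. It ranged from 2.08 to 4.57 CPM (median 2.59) in untreated and from 0 to 0.467 CPM (median 0.229) in treated mice, with 100 UMIs in all untreated and 17 in all treated mice (log2 fold change -3.81, SE 0.362, adjusted p = 9.87e-11), and UMIs per cell fell as well. Gna13, the G protein that confines GC B cells through S1pr2, rose slightly with separate groups (between 206 and 245 CPM (median 216) in treated and 177 and 203 CPM (median 191) in untreated mice, log2 fold change 0.21, SE 0.0451, adjusted p = 0.000139). Plxnb2, a semaphorin receptor, rose by 0.26 with overlap. Actin genes fell in 19 and rose in 3 of 36 (median -0.11). Dock10, an exchange factor for Cdc42 and Rac, ranged from 234 to 331 CPM (median 280.1) in untreated and from 142 to 184 CPM (median 159) in treated mice, without overlap (log2 fold change -0.76, SE 0.0706, adjusted p = 4.27e-11), and the capping protein gene Capg fell by 0.67. Coro1c, a coronin, rose with separate groups (between 106 and 143 CPM (median 115) in treated and 84.8 and 105 CPM (median 86.4) in untreated mice, 0.38).

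Genes of the fates that leave the GC were reduced or divided. Memory precursor genes fell in 16 and rose in 0 of 23 (median -0.43), with Cd55 and Hhex, a homeobox factor of memory B cells at low counts (-1.14), showing the largest falls. That of Hhex was -1.41 in the larger and -0.26 in the smaller pool, where it did not pass alone (adjusted p = 0.792) and the groups overlapped. Plasma cell genes gave 2 rises and 3 falls among 17 (median -0.05). Jchain, which joins IgM and IgA polymers, ranged from 644 to 1289.7 CPM (median 945) in untreated and from 1074 to 1859.9 CPM (median 1337) in treated mice (log2 fold change 0.50, SE 0.158, adjusted p = 0.00805), and Slamf7 rose slightly with separate groups (0.19). The call of Jchain was lost with B1-8hi cells only and in the smaller pool alone. That of Slamf7 was lost with thinned cells and in the smaller pool alone. Ell2, an elongation factor of secretory immunoglobulin mRNA, measured between 92.6 and 109.5 CPM (median 98.5) in treated and 119 and 153 CPM (median 125) in untreated mice, without overlap (log2 fold change -0.37, SE 0.0509, adjusted p = 1.5e-07). Prdm1, the master regulator Blimp-1, was rare (between 0.995 and 6.62 CPM (median 2.26) in treated and 0 and 10.4 CPM (median 5.60) in untreated mice) and its estimate did not pass (log2 fold change -0.85, SE 0.483, adjusted p = 0.147), although it did without 1 untreated mouse of the smaller pool (-1.13, adjusted p = 0.0432).

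Of 32 apoptosis genes, 14 fell and 5 rose (median -0.10), and 11 fell and 2 rose of 31 with B1-8hi cells only. Among the falls were Bmf, a BH3-only inducer of death (between 2.41 and 5.48 CPM (median 4.24) in treated and 4.38 and 10.5 CPM (median 6.55) in untreated mice, log2 fold change -0.88, SE 0.169, adjusted p = 4.13e-05), and Birc3. Chromatin and DNA methylation enzymes rose in 16 and fell in 6 of 38, counts that became 14 and 16 with scaling by library totals. Smarca4, the ATPase BRG1 of SWI/SNF, measured between 423 and 546 CPM (median 463) in treated and 306 and 398 CPM (median 335) in untreated mice (log2 fold change 0.46, SE 0.0526, adjusted p = 5.57e-09), and Kdm5b, a demethylase of histone H3, ranged from 7.98 to 13.8 CPM (median 9.41) in untreated and from 3.49 to 7.96 CPM (median 5.82) in treated mice (log2 fold change -0.84, SE 0.180, adjusted p = 0.000168). Each separated the groups, but the fall of Kdm5b was -1.17 in the larger and -0.29 in the smaller pool. The architectural protein gene Hmga1 rose by 0.59 and Hdac9 fell by 0.33, with overlap.

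Interferon-stimulated genes gave no common change, with 4 falls and 0 rises among 36. The median was 0.19 in the larger and -0.48 in the smaller pool. The schlafen genes Slfn2 and Slfn1 were among the falls, the latter with 64 UMIs in all untreated and 27 in all treated mice (log2 fold change -2.56, SE 0.561, adjusted p = 0.000226). The interferon-stimulated response element (ISRE) was in the windows of 19 of 32 genes of the list (59.4%, against 3.99% of all genes), but in 0 of the 3 that fell and had a window.

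Ly75, which encodes the target of the injected antibody, was knocked out in most of the transferred cells, so its level can reflect the mixture of cells that was sequenced as well as expression. It ranged from 36.7 to 69.3 CPM (median 43.7) in untreated and from 56.05 to 68.1 CPM (median 57.8) in treated mice (log2 fold change 0.30, SE 0.104, adjusted p = 0.0162). In the larger pool the untreated mice stood at 36.7 to 48.3 CPM and the treated mice at 56.1 to 65.4 CPM, without overlap (log2 fold change 0.53), while in the smaller pool they stood at 65.9 and 69.3 CPM and at 56.2 to 68.1 CPM (-0.12), so the rise rested on the larger pool. It was lost without any 1 of 5 mice of that pool, 3 untreated and 2 treated (adjusted p 0.0512 to 0.0694), and with scaling by library totals.

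The 48 h effects were then placed against those of treated and untreated mice at 72 h, which are other animals with no shared controls. The effect at 48 h differed from that at 72 h for 3217 genes (31.5%, edgeR test of the difference), 2793 of them among the genes called at 48 h, and 874 genes (8.55%) were called at 72 h. Calls at 48 h rest on values that the test of the difference uses again, so the count among them is no separate evidence. Most mitosis and DNA replication genes rose at 48 h, whereas at 72 h the median of mitosis genes was -0.03 and that of replication genes -0.08, and the effect differed between the times for 46 of 48 and 47 of 50 genes. At 72 h the effects on Cd83, Fcer2a and Cr2 measured -0.19, -0.22 and -0.37, and for all 3 the difference between the times passed the test. MHC class II genes differed between the times in all 15 members, with a 72 h median of -0.06.

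Some named genes passed at both times. Rgs18 measured -3.81 at 48 h and -4.17 at 72 h, Rnpep -1.32 and -1.59, Pttg1 -0.85 and -1.06, and Cd55 -1.30 and -1.12. Ide measured 1.35 and 1.02. For these 5 genes the difference between the times did not pass the test, and each passed at both times. How far a change in the mixture of donor cells enters their values was not tested. Cholesterol genes had a median of 0.26 at 48 h and 0.48 at 72 h, and the effect differed between the times for 5 of 24. Memory precursor genes had a median of -0.43 at both times, and 6 of 23 differed. Of the 24 largest rises and falls at 48 h, 10 passed at 72 h with the same sign.

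**Figure D5:**
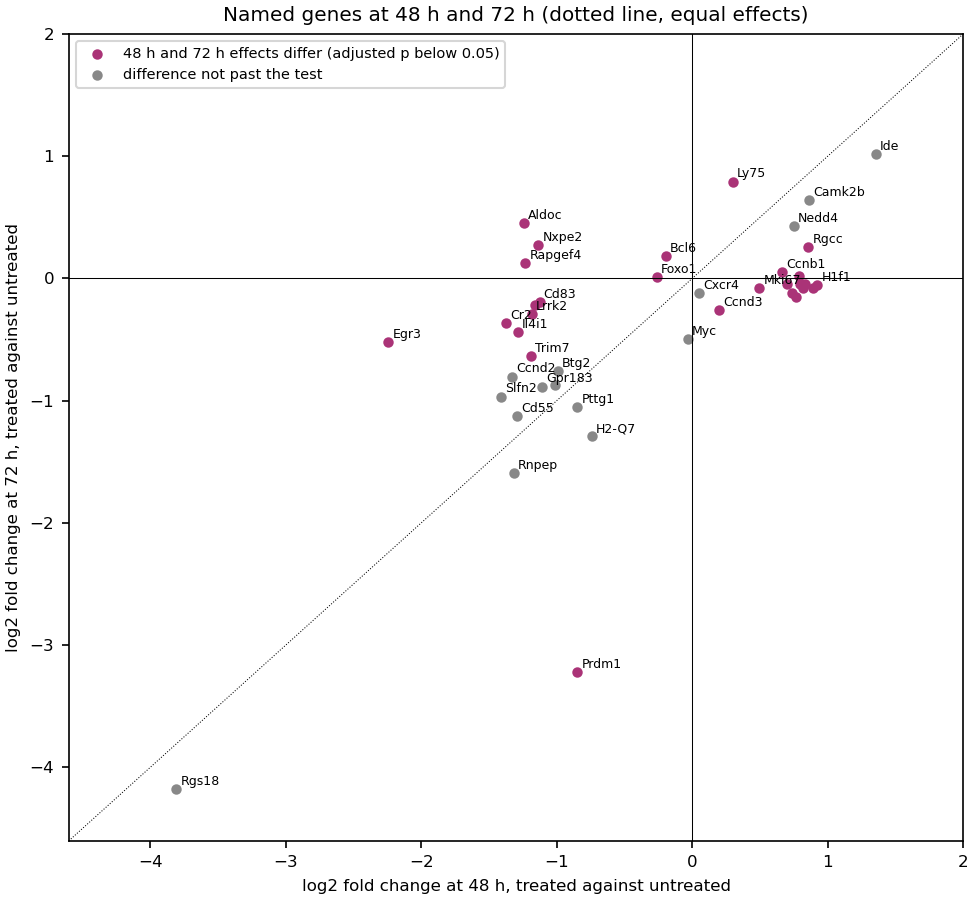
Log2 fold change of treated against untreated mice at 72 h (vertical axis) against that at 48 h (horizontal axis) for the largest rises and falls and other named genes, with purple points where the 2 effects differ past adjusted p 0.05 and a dotted line of equal effects. Ccnb1, Mki67 and the histone genes lie right of 0 and near 0 at 72 h, Cd83 (-0.19 at 72 h) and Nxpe2 (0.27) lie left of 0 and near 0, and Rgs18, Rnpep, Pttg1 and Ide lie near the dotted line.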

How the data were processed

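GC B cells of 39 mice in 5 conditions were sequenced as 10X Genomics 5′ libraries in 2 pools. The authors deposited UMI counts per gene and per hashtag that were not normalized, without immunoglobulin genes among the 21848 genes of the matrices used here. The file headers name CellRanger 8.0.1 (mm39), whereas the submitters' processing notes list Cell Ranger 6.0.1 and Seurat 5.1.0. Groups were taken from the authors' list of mice, in which day 9 was read as 48 h after treatment at 7 dpi.

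Hashtags were called with HTODemux (Seurat 5.3.0, positive quantile 0.99), and a cell went to the mouse whose 2 hashtags were the positive ones. Cells positive for more than 2 hashtags (1936 and 2705) were left out, doublets within a mouse were not searched for, and 94 barcodes occurred in both pools, 43 of them among the kept cells. UMIs of the kept cells (200 or more genes, mitochondrial share below 10%) were summed per mouse, 527 to 983 cells and 4788438 to 13373185 UMIs per mouse at 48 h. The test was the quasi-likelihood test of edgeR 4.0.16 (R 4.3.3) on all 5 conditions in 1 fit with the pool as covariate. It used TMM factors, the default low-count filter and an adjusted p (Benjamini-Hochberg) below 0.05. CPM are relative to the TMM-scaled library size. Measures per cell were tested by exact permutation of the mice within pools, two-sided. On data simulated from these mice (10220 genes, 50 changed genes per fold size) the test recovered 23 of 50 changes of 1.2-fold, 41 of 1.5-fold, 48 of 2-fold and 49 of 3-fold, with 12 false calls among 10020 unchanged genes. The simulation changed 200 genes, as many up as down, and left all others equal, whereas 47.4% of genes were called here. Errors from the choice of scaling are therefore outside what it measured.

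Named genes were the 12 largest rises and 12 largest falls that passed the test, had the same sign in both pools and showed a mean log2 CPM over 4, the 2 largest rises and 2 largest falls of each list (where fewer than 2 members passed, the 2 with the highest average), and Ly75, Ccnd2, Ccnd3, Myc, Bcl6, Cxcr4, Cd83, Foxo1, Mki67 and Prdm1. Some genes that this rule names are not reported here. Genes with a printed promoter were the 2 members of a list with the largest change whose window holds the motif. The members and lists were chosen with earlier results of these data known, so that no count of a list is independent evidence. Gene positions are from GENCODE vM39 (GRCm39), and promoters from RefSeq (GRCm38.p6). Alternatives were DESeq2 1.42.0, RLE factors, library totals, no filter on genes or cells, the 15 mice of 48 h alone, no pool term, each pool alone, B1-8hi cells only, cells thinned to 2871 UMIs, cells given to the highest hashtags, a test against a fold of 1.2 and each mouse left out.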

Additional observations from a re-analysis of the deposited data

Results flagged for a closer look

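Among 296 groups of 6 or 9 mice whose CPM or measures per cell were examined for a mouse far from the others, 8 had one. Chance gives about 5% of such groups where the mice form a single homogeneous set. Each group mixed both pools, whose levels differ for some genes, so the count cannot be read against that share. Myc was highest in 1 untreated mouse of the larger pool at 55.3 CPM, with the next mouse at 34.8 CPM, and Gadd45g was lowest in 1 untreated mouse of the smaller pool at 9.54 CPM, with the next at 16.3 CPM. In treated mice, Foxp1 reached 287 CPM in 1 mouse of the smaller pool against 238 CPM in the next, and single mice of the larger pool stood apart at the top for Pfkm (4.80 CPM), Paics (284 CPM), Traf2 (40.6 CPM) and Slfn1 (1.48 CPM) and at the bottom for Snrpa1 (171 CPM).

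The effect of treatment at 48 h differed from that at 72 h for 3217 genes (31.5%) by edgeR's test of the difference, 98 of the 148 named genes among them. Most named genes were chosen for large 48 h effects, which this test uses again, so their count is no separate evidence. Effects that were more positive at 48 h, as 48 h minus 72 h on the log2 scale, were those of H1f1 (0.98), H2ac22 (0.97), H3c11 (0.92), Bcat1 (0.90), H1f5 (0.88), H2bc9 (0.87), H2bc18 (0.84), H2ac20 (0.76), Rgcc (0.60), Mki67 (0.57) and Ccnd3 (0.46). The corresponding value for Prdm1 was 2.37, from a 72 h effect of -3.22 at very low counts. Effects that were more negative at 48 h were those of Nxpe2 (-1.41), Rapgef4 (-1.36), Cr2 (-1.01), Fcer2a (-0.94), Cd83 (-0.93), Lrrk2 (-0.89), Il4i1 (-0.85), Trim7 (-0.56), Ly75 (-0.49), Bcl6 (-0.38) and Foxo1 (-0.27).

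The 48 h effect differed between the pools for 2 genes (0.0196% of those tested, with 681 at an unadjusted p under 0.05), which were named after their values were seen. Mid1, an X-linked ubiquitin ligase of microtubules, differed by 2.86 between the larger and the smaller pool, from 0.91 to -1.94 (adjusted p = 1.39e-11, edgeR interaction term). Slc15a2, a peptide transporter, differed by 1.15, from 0.09 to -1.06 (adjusted p = 0.000692).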

How the results depend on the processing

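No paired analysis was possible because the names of the mice mark separate animals and link no untreated mouse to a treated one, and a term for the pool stands in the fit instead. The 4843 genes changed at 48 h became 2680 without that term, 2149 in the smaller pool alone, 3097 with cells thinned to 2871 UMIs and 970 against a fold of 1.2, where fewer mice, fewer UMIs or a stricter rule enter by construction for the last 3. The other alternatives gave 3397 (B1-8hi cells only) to 5078 genes (15 mice alone), and leaving out 1 mouse at a time gave 4442 to 4805. Genes whose effect differed between 48 h and 72 h numbered 1931 with B1-8hi cells only, and the cause was not tested. In the smaller pool alone, where an exact test cannot go below p = 0.1, the differences were 6191 UMIs and 1236 genes per cell and -27.5, 14.0 and 13.5 percentage points of G1, S and G2/M cells. The difference in genes per cell was 3.72 after thinning over both pools, which pointed opposite ways. Of the 145 named genes past the test, 82 kept the call in every alternative that tested them and 143 kept their sign. Of the 28 alternatives, Egr3 and Slfn1 were tested in 25 and Rgs18, Cdkn2a, Pfkm and Ndrg1 in 27. Of the 3 named genes that did not pass, Cxcr4 passed in the smaller pool alone (0.31) and Prdm1 without 1 untreated mouse of that pool (-1.13). Calls lost numbered 29 without the pool term, 44 in the smaller and 11 in the larger pool alone, 17 with thinned cells, 11 with B1-8hi cells only, 9 with library totals and 49 against a fold of 1.2. Leaving out 1 mouse ended the calls of 9, Psmb10, Canx, Hspa5, Traf2, Marcksl1, Lgmn, Atg3, Ndrg1 and Ly75. Library totals also ended those of mt-Nd2, Atp6v1a and Ccnd3, B1-8hi cells only those of Cdkn2a, Slc7a5, mt-Atp8, Jchain and Xrcc4, and thinned cells, among others, those of Slc38a2, Ddit3, Slamf7, Hhex, Xrcc2 and Egln1. Reversals were Atg3 (-0.036) and Ly75 (-0.15), both in the smaller pool alone. Of list medians over 0.1 in size, 3 changed sign, cell-cycle brakes with thinned cells (-0.08), DZ genes in the larger pool alone (-0.01) and interferon-stimulated genes in the larger pool alone (0.16). The alternative with immunoglobulin genes left in was not run, because the matrices used here hold none. Intervals and tests do not cover capture differences between pools, and with 2 untreated mice in the smaller pool its own values are the least certain.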
